A study of Mus musculus with 9 samples.

Results

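The pro-survival members of the BCL2 family were taken by gene symbol: Bcl2, Bcl2l1 (BCL-XL), Mcl1, Bcl2l2 (BCL-W) and the A1 paralogues Bcl2a1a, Bcl2a1b and Bcl2a1d. All 7 were among the 24594 genes measured, and 6 of them passed the filter on low values that 11569 genes passed (at least 1 RPKM in at least 2 libraries). Bcl2l2 did not pass it. RPKM is a gene's exonic read number divided by its exon length and by the library's total.

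The libraries came from mixed bone marrow chimeras. Lethally irradiated hosts received OT-II control marrow from F1 mice of BoyJ and B6.Cg-Tg(TcraTcrb)425Cbn/J, OT-II marrow from C57BL/6 mice that were Nr4a1-/- Nr4a3-/- (DKO), and non-transgenic WT marrow, and thymocytes were taken after 4.7 weeks of reconstitution. Hosts were WT mice, labelled as BoyJ though the study's methods also describe WT F1 mice with both CD45 alleles, or RIPmOVA mice, F1 with BoyJ, in which the rat insulin promoter of the Ins2-TFRC/OVA transgene drives membrane-bound ovalbumin, the antigen of the OT-II T cell receptor. All groups were sorted as CD4+ CD8- CD69+ Vα2+ Vβ5+ cells, and the genotypes were told apart by CD45 alleles, both of which F1 hosts also carry. There were 2 OT-II control and 3 DKO libraries from WT hosts, and 2 of each genotype from RIPmOVA hosts. Control and DKO libraries with the same number came from the same chimera, so that 4 chimeras gave both genotypes and 1 WT host gave DKO cells alone.

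Recovered depth was 15520000 to 25050000 reads per library. Gene-level Nr4a1 was 60.1 to 87.7 RPKM in all 5 libraries from WT hosts and 229 to 282 RPKM in the 4 from RIPmOVA hosts, with no lower values under the DKO label. Nr4a3 was at 0.181 to 0.665 RPKM in WT hosts, and in RIPmOVA hosts at 5.66 and 3.72 RPKM in control and 16.5 and 14.1 RPKM in DKO-labelled libraries, higher under the DKO label. Gene-level RPKM therefore did not check the genotype labels, and these libraries are called DKO-labelled throughout. The CD4 T cell markers Cd4, Cd3e and Cd3d were at 189 RPKM or more in every library. Of the 3 CD8 lineage markers, Cd8b1 was at 54.5 to 96.4 RPKM, Cd8a at 1.76 to 7.6 RPKM and Runx3 at 3.08 to 5.64 RPKM.

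Pro-survival BCL2 proteins sit on the mitochondrial outer membrane and hold BAX and BAK in check by binding them and their BH3-only activators. BIM, the product of Bcl2l11, is the BH3-only protein best known for the deletion of self-reactive thymocytes, and BCL2, BCL-XL, MCL1 and A1 can each bind it. In the thymus, BCL-XL is known for keeping double-positive cells alive, BCL2 for the survival of single-positive cells, MCL1 for survival at most stages, and A1 as a target of T cell receptor and NF-kB signalling. MCL1 and A1 are short-lived proteins, so their transcript and protein can differ. Protein was not measured in these libraries.

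The A1 paralogues are copies on chromosome 9 (GRCm38): Bcl2a1a at 88956900 to 88962419 on the plus strand, Bcl2a1b at 89199209 to 89207827 on the plus strand, and Bcl2a1d at 88723285 to 88731914 on the minus strand. Their coding sequences of 516 bases were 97.9% identical between Bcl2a1a and Bcl2a1b (11 differing bases), 98.6% between Bcl2a1a and Bcl2a1d (7) and 98.8% between Bcl2a1b and Bcl2a1d (6). The start of the coding sequence, bases 1 to 120 from the start codon, is shown because it holds 7 of the 12 positions at which the copies differ. Capitals mark those 7 positions.
Bcl2a1a: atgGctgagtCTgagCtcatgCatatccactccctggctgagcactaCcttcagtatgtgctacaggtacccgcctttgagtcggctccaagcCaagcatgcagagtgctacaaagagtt
Bcl2a1b: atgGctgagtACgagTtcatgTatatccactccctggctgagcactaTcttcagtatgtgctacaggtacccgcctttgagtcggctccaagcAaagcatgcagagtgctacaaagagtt
Bcl2a1d: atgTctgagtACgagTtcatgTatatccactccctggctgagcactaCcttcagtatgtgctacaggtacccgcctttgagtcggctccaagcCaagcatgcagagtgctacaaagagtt

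Of all stretches of 100 bases in the transcripts, 43.5% for Bcl2a1a, 31.1% for Bcl2a1b and 54.7% for Bcl2a1d were identical to a stretch in another of these copies, and 0% for Bcl2a1c, the more distant relative at chromosome 9, 114330135 to 114330578. A read from a shared stretch cannot be placed in 1 copy by itself, though its mate may place the pair. How many pairs were ambiguous was not measured. The split between the copies is therefore uncertain, and their sum is given beside each. The Bcl2a1b value is also uncertain because exons of the gene model Gm29094 overlap it on the same strand. Its deposited length was 1481 bases, where the annotation used here gave 817.

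The similarity ran upstream of the genes as well. A stretch of 100 bases that ends 86 bases before the annotated start of Bcl2a1a and Bcl2a1b and 36 before that of Bcl2a1d is shown because it differed at 1 position among the paralogues, marked by the capital.
Bcl2a1a, chr9:88956714-88956813 (plus strand): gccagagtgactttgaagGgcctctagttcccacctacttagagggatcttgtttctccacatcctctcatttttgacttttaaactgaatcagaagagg
Bcl2a1b, chr9:89199023-89199122 (plus strand): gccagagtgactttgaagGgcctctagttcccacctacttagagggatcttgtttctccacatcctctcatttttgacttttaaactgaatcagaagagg
Bcl2a1d, chr9:88731951-88732050 (minus strand): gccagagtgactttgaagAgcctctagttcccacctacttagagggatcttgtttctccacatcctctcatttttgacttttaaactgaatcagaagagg

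The other members lie apart. Bcl2 is at chromosome 1, 106538178 to 106714274 (minus strand), with exons of D630008O14Rik overlapping on the other strand. Bcl2l1 is at chromosome 2, 152780668 to 152831728 (minus strand), Mcl1 at chromosome 3, 95658788 to 95663176 (plus strand), and Bcl2l2 at chromosome 14, 54883377 to 54888234 (plus strand), where exons of Gm20521 overlap. In the 250 bases before the RefSeq start sites of the 7 members (GRCm38), searched on both strands, the Nr4a monomer motif AAAGGTCA was present for 0 members, against 1.34% of all 32851 promoters. The STAT motif TTCNNNGAA was present for 0 members (7.02% of all promoters) and the NF-kB consensus motif for 1 member, Bcl2l1 (7.25% of all promoters), where it lay at -242 to -233 from 1 of its start sites. A member counts if any of its start sites matched, and the 7 members had 9 start sites. The shares of all promoters count each start site, so the units differ. These windows hold only the nearest upstream bases.

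Mcl1 was by far the most abundant member in every library. Levels between genes are compared here per merged exon length. The deposited lengths count bases shared by alternative exons more than once and so understate genes with many isoforms. The deposited length was 2.6 times the merged length for Bcl2l1, 1.93 times for Bcl2l2 and Bcl2l11, 1.18 times for Mcl1 and 1.1 times for Bcl2. For Bcl2a1b it was 1.81 times. In the annotation used here its exons summed to the merged length, so alternative exons there do not account for that excess. The authors used another release of the annotation, so its source is not known. The level of Bcl2a1b on the merged scale is therefore uncertain. On this scale, control cells of WT hosts held 216 ± 29.2 RPKM of Mcl1 (SD, n = 2), followed by Bcl2 at 40.5 ± 2.86, Bcl2l1 at 22.3 ± 2.7, Bcl2a1b at 13.5 ± 4.88, Bcl2a1d at 11.8 ± 2.25, Bcl2a1a at 0.739 ± 0.376 and Bcl2l2 at 0.391 ± 0.183. The ranges of Bcl2a1b and Bcl2a1d overlapped, as did those of Bcl2a1a and Bcl2l2, and the other neighbours in this order did not.

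DKO-labelled cells of WT hosts had the same order down to Bcl2a1d. In RIPmOVA hosts the order was different. In control cells of RIPmOVA hosts, Bcl2a1d at 65.1 ± 8.39 RPKM and Bcl2a1b at 59.0 ± 11.9 RPKM (SD, n = 2) came next after Mcl1 at 195 and 205 RPKM, with overlapping ranges, and Bcl2 came after them at 43.6 ± 4.74 RPKM. The place of Bcl2a1b above Bcl2 there depends on the length used. As deposited, Bcl2a1b was at 32.5 ± 6.54 RPKM and Bcl2 at 39.8 ± 4.33 RPKM, with overlapping ranges. In DKO-labelled cells of RIPmOVA hosts, Bcl2 at 22.9 ± 1.69 RPKM (SD, n = 2) also stood below Bcl2l1 at 32.2 ± 4.01 RPKM, without overlap. Bcl2l2 was at or near the bottom in all groups, with 23 to 45 reads per library.

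**Figure D1:**
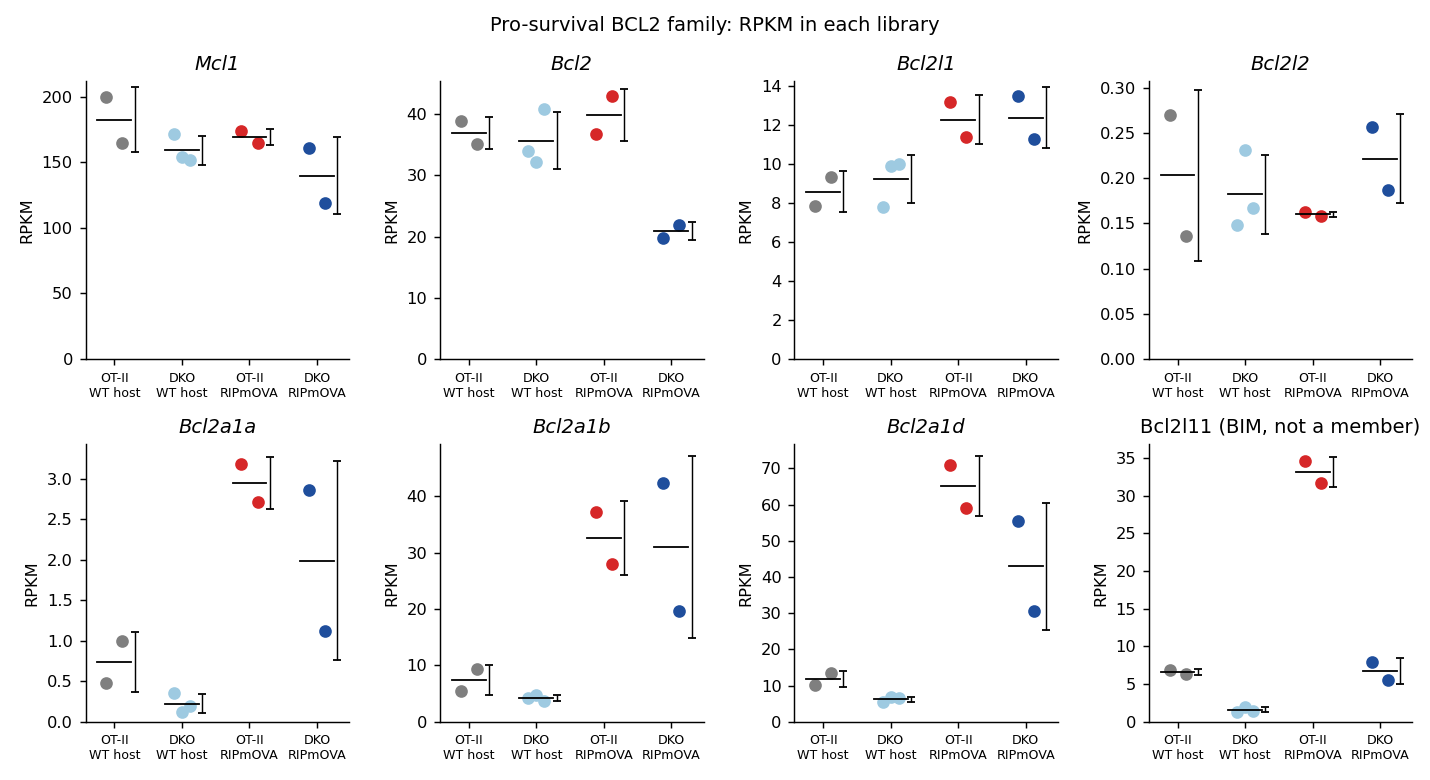
RPKM as deposited (vertical axes, each from 0) of the 7 members and of Bcl2l11 in the 9 libraries. Points are libraries, horizontal lines are group means and bars are 1 SD around the mean; Bcl2 is low in both DKO-labelled cells of RIPmOVA hosts (19.8 and 21.9 RPKM), and the A1 paralogues are high in all 4 libraries from RIPmOVA hosts.

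The A1 paralogues Bcl2a1b and Bcl2a1d were higher in RIPmOVA than in WT hosts in both genotypes. The question of this comparison is what changed in OT-II thymocytes that developed in hosts with ovalbumin. If the WT hosts were BoyJ as labelled, self-antigen and host strain cannot be told apart in it. In OT-II control libraries, 2 of the 6 members kept passed both the adjusted p of 0.05 and the log2 limit of 1, Bcl2a1b and Bcl2a1d, both higher, while 1.23% of all 11569 genes passed (1.89% on the adjusted p alone). In DKO-labelled libraries Bcl2a1b and Bcl2a1d passed as well, both higher, against 1.68% of all genes. Bcl2a1a also passed there, which makes 3 of 6, but it reached the test only because it is high in RIPmOVA hosts, so its call is given as a description. It was not called with no filter, and a filter of 5 RPKM removed it. On the adjusted p alone Bcl2 passed too, lower, against 3.35% of all genes. The median log2 difference of the members kept, Bcl2a1a among them, was 1.0 in control and 1.06 in DKO-labelled libraries, where the medians of all genes were -0.02 and 0.03. In both it lay midway between Bcl2l1, which did not pass, and Bcl2a1a, so it shows no rise of the family as a whole. A1 paralogues can share reads, so these calls are not separate pieces of evidence.

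Bcl2a1d was at 10.2 and 13.4 RPKM in control cells of WT hosts and at 71.0 and 59.2 RPKM in those from RIPmOVA hosts. In DKO-labelled libraries it was at 5.46, 6.83 and 6.47 RPKM in WT hosts and at 55.4 and 30.6 RPKM in RIPmOVA hosts. Every library from a RIPmOVA host was above every library from a WT host. The mean was 5.51 times as high in RIPmOVA hosts in control libraries (log2 difference 2.42, SE 0.25, limma's adjusted p = 0.0021) and 6.87 times as high in DKO-labelled libraries (2.63, SE 0.23, adjusted p = 0.00059).

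Bcl2a1b was at 5.53 and 9.33 RPKM in control cells of WT hosts and at 37.2 and 27.9 RPKM in those from RIPmOVA hosts. In DKO-labelled libraries it was at 4.21, 4.79 and 3.69 RPKM in WT hosts and at 42.4 and 19.6 RPKM in RIPmOVA hosts. Again the hosts did not overlap, and the DKO-labelled cells of RIPmOVA hosts were the most spread. The log2 difference was 2.09 in control libraries (SE 0.34, adjusted p = 0.02) and 2.64 in DKO-labelled libraries (SE 0.31, adjusted p = 0.0026). The call in control libraries did not hold without replicate 1 of control cells of WT hosts (adjusted p = 0.1) or without replicate 1 (0.19) or 2 (0.077) of control cells of RIPmOVA hosts. It was also lost with voom on the recovered reads (adjusted p = 0.054).

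Bcl2a1a was low. It was at 0.473 and 1.0 RPKM (6 and 19 reads) in control cells of WT hosts and at 3.18 and 2.72 RPKM (43 and 54 reads) in those from RIPmOVA hosts. In DKO-labelled libraries it had 7, 2 and 4 reads in WT hosts (0.35, 0.121 and 0.195 RPKM) and 48 and 16 reads in RIPmOVA hosts (2.86 and 1.12 RPKM). It reached 1 RPKM in 5 libraries, 4 of them from RIPmOVA hosts, so it passed the filter through the group in which it was high. The log2 difference was 1.7 in DKO-labelled libraries (SE 0.35, adjusted p = 0.035), a call that 12 of 21 alternatives did not keep, with adjusted p values from 0.019 to 0.33. It was 1.51 in control libraries (SE 0.39, adjusted p = 0.1).

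Summed over the copies, which depends less on how reads were split, A1 was at 16.2 and 23.7 RPKM in control cells of WT hosts and at 111 and 89.8 RPKM in those from RIPmOVA hosts, 5.03 times as high on average. In DKO-labelled libraries the sum was 10.7 ± 0.91 RPKM (SD, n = 3) in WT hosts and 76.0 ± 34.9 RPKM (SD, n = 2) in RIPmOVA hosts, 7.1 times as high. The adjusted p was 0.0047 in control and 0.001 in DKO-labelled libraries. Bcl2a1d held 42.0% to 54.0% of the reads of the 3 copies in the 9 libraries, Bcl2a1b 43.7% to 55.6% and Bcl2a1a 0.758% to 3.14%. Control cells of RIPmOVA hosts had the highest shares of Bcl2a1d (51.5% and 54.0%) and the lowest of Bcl2a1b (46.3% and 43.7%), and the ranges of the other 3 groups overlapped. Bcl2a1c, outside the 7 members, had 0 to 12 reads per library and did not pass the filter.

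Cells of other types that express A1 were looked for with marker lists. The 8 neutrophil and monocyte markers summed to 2.84 to 9.46 RPKM in control and 1.91 to 4.38 RPKM in DKO-labelled cells of WT hosts, and to 9.95 to 21.0 and 4.1 to 5.86 RPKM in those from RIPmOVA hosts. In the control cells of RIPmOVA hosts most of this was Lyz2, at 18.7 and 8.44 RPKM. S100a8 was listed at 0 in 8 of 9 libraries, with 0.088 RPKM in the other, S100a9 was at 0.393 RPKM or less and Ly6g at 0.191 RPKM or less. The 4 B cell markers summed to 2.56 to 8.38 RPKM and the 6 dendritic cell markers to 0.594 to 3.39 RPKM over all libraries. Of the 3 regulatory T cell markers, Il2ra and Ikzf4 rose with the host in both genotypes. Their 3-gene sum was 5.27 to 7.14 RPKM in control cells of WT hosts and at least 21.0 RPKM in those from RIPmOVA hosts, and 1.89 to 2.83 and 8.8 to 12.3 RPKM in DKO-labelled libraries. Foxp3 was at 0.29 and 0.491 RPKM in control cells of WT hosts. It was at 1.9 and 3.31 RPKM in control cells of RIPmOVA hosts, the only group in which it reached 1 RPKM. In all 5 DKO-labelled libraries Foxp3 was at 0.092 RPKM or less. The part of these lists in the A1 difference was not tested. In bulk RNA, a change in the number of cells of a type and in RNA per cell cannot be told apart.

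**Figure D2:**
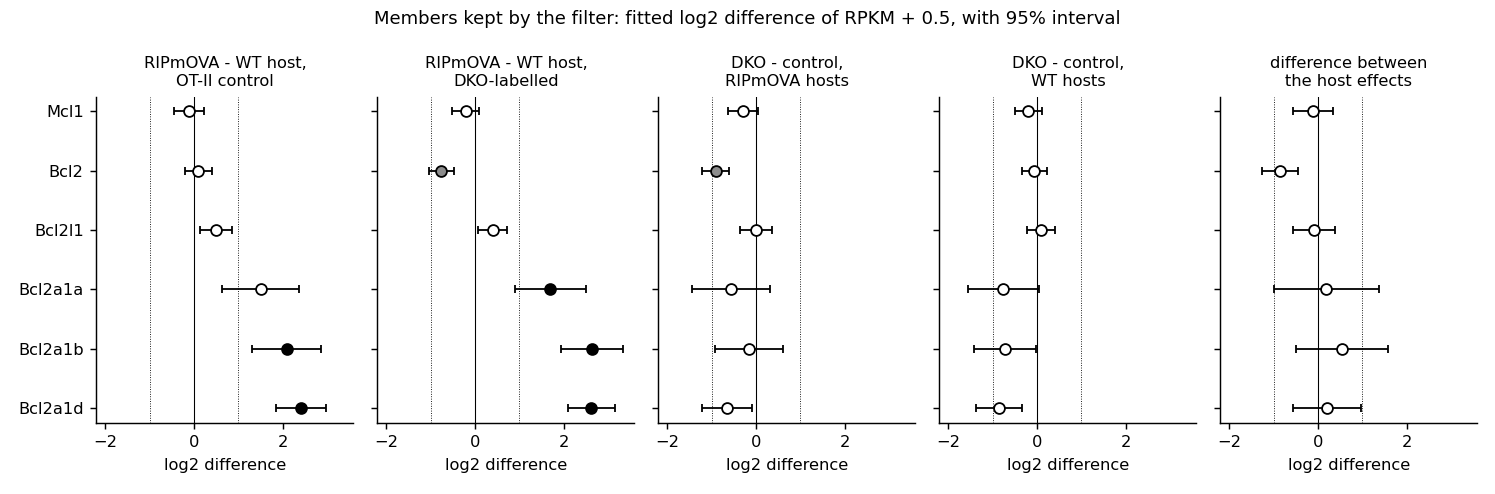
Fitted log2 difference of RPKM + 0.5 (horizontal axes) for the 6 members kept, in 5 comparisons; points are estimates, bars are 95% intervals and dotted lines mark a difference of 1. Filled black points passed the adjusted p and the limit of 1, grey points the adjusted p alone; the A1 paralogues lie at 1.51 to 2.64 in the host comparisons, and Bcl2 alone is grey, at -0.76 and -0.91.

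Bcl2l1, which encodes BCL-XL, lay higher in RIPmOVA hosts in both genotypes without passing the test. It was at 7.86 and 9.33 RPKM in control cells of WT hosts and at 13.2 and 11.4 RPKM in those from RIPmOVA hosts. In DKO-labelled libraries it was at 7.82, 9.92 and 9.99 RPKM in WT hosts and at 13.5 and 11.3 RPKM in RIPmOVA hosts. All 4 libraries from RIPmOVA hosts were above all 5 from WT hosts. The log2 difference was 0.49 in control libraries (SE 0.16, limma's adjusted p = 0.18) and 0.41 in DKO-labelled libraries (SE 0.14, adjusted p = 0.19). Over the 9 libraries, log2 Bcl2l1 had a Pearson r of 0.77 to 0.86 with the A1 paralogues, a description over libraries that share the host difference.

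Mcl1 stayed high in all 4 groups. It was at 200.4 and 165.5 RPKM in control and 171.7, 153.6 and 152.2 RPKM in DKO-labelled cells of WT hosts, and at 174.0 and 165.5 RPKM in control and 160.6 and 118.6 RPKM in DKO-labelled cells of RIPmOVA hosts. Hosts overlapped in both genotypes. The log2 difference between hosts was -0.10 in control libraries (95% interval -0.44 to 0.23, limma's adjusted p = 0.8) and -0.20 in DKO-labelled libraries (-0.51 to 0.10, adjusted p = 0.44). A change of Mcl1 by more than 0.51 in either direction on the log2 scale lay outside both intervals.

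Bcl2l2 had a mean of 0.203 ± 0.0948 RPKM in control (SD, n = 2) and 0.182 ± 0.0435 RPKM in DKO-labelled cells (SD, n = 3) of WT hosts. In RIPmOVA hosts it had 0.16 ± 0.00283 and 0.222 ± 0.0488 RPKM (SD, n = 2 each). No difference was detectable at this depth. Without the filter, its log2 differences ranged from -0.08 to 0.13 in the 4 pairwise comparisons, on a scale that understates changes of low genes.

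Bcl2 was the member that set the DKO-labelled cells of RIPmOVA hosts apart. Those libraries had 19.8 and 21.9 RPKM, and the other 7 libraries had 32.2 to 42.9 RPKM. The question here is which parts of the difference between hosts depend on genotype. Between genotypes in RIPmOVA hosts, Bcl2 was 1 of 6 members that passed the adjusted p, lower in DKO-labelled libraries, where 2.21% of all genes passed. It did not reach the log2 limit of 1, so 0 of 6 members were called by both criteria in limma, against 1.07% of all genes. At an unadjusted p under 0.05 there were 2 of 6, Bcl2 and Bcl2a1d, against 2471 of all 11569 genes. Voom on the recovered reads also called 0 members by both criteria. The median log2 difference of the members was -0.43, with 0.04 for all genes. It lay midway between Bcl2a1a and Mcl1, neither of which passed.

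Each chimera from a RIPmOVA host held the difference on its own. DKO-labelled cells had 0.538 times the Bcl2 of the control cells of the same host in the first chimera and 0.512 times in the second. In WT hosts these ratios were 0.874 and 0.917. The comparisons between genotypes and between hosts share the DKO-labelled cells of RIPmOVA hosts: the log2 difference was -0.91 to control cells of the same hosts (SE 0.13, adjusted p = 0.012) and -0.76 to DKO-labelled cells of WT hosts (SE 0.12, adjusted p = 0.013). Between hosts in control cells it was 0.10 (95% interval -0.20 to 0.40), and between genotypes in WT hosts -0.06 (-0.33 to 0.22), neither passing.

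The test of whether the host effect on Bcl2 differed between genotypes gave a log2 difference of -0.86 (SE 0.18, 95% interval -1.27 to -0.45, unadjusted p = 0.001). It did not pass after adjustment over all genes (limma's adjusted p = 0.25, and 0.081 to 1.0 over 23 alternatives), so a difference between genotypes in the host effect is not shown. For this term 0 of 6 members were called, against 0.0173% of all genes by either rule. Bcl2 alone of the members had an unadjusted p under 0.05, as did 1078 of all 11569 genes, and voom also called 0 members.

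The libraries with low Bcl2 stood apart in other ways. Reads of 1499 sensory receptor genes, a signal not known from thymocytes, made up 1055 and 1501 RPM (reads scaled to library size) in the DKO-labelled cells of RIPmOVA hosts, and 557 and 296 in the control cells of those hosts. In WT hosts they were 1147 and 518 in control and 513, 1062 and 420 in DKO-labelled libraries, where the libraries at 1147 and 1062 had 38.8 and 32.2 RPKM of Bcl2. The covariate fitted was the log2 of the summed RPKM of these genes, which orders the libraries differently. The sums were 483.5 and 649.1 RPKM in the DKO-labelled cells of RIPmOVA hosts, the highest of all. They were 439.1 and 452.9 RPKM in the WT-host libraries at 1147 and 1062. With this covariate the Bcl2 difference was -0.77 between genotypes in RIPmOVA hosts (adjusted p = 0.22) and -0.66 between hosts in DKO-labelled cells (adjusted p = 0.13), so both calls on the adjusted p were lost. They were also lost without replicate 1 of the DKO-labelled cells of RIPmOVA hosts (0.063 and 0.11), and the first without replicate 1 (0.062) or 2 (0.1) of the control libraries. The direction held in all 24 and 23 alternatives run, from -1.14 to -0.77 and from -0.93 to -0.65. The 5 thymic epithelial markers also summed higher in these libraries, 8.0 to 11.7 RPKM against 2.68 to 6.94 in the other 7. Epcam was the largest part of the sums, at 10.2 and 5.78 RPKM in these libraries and 2.24 to 6.24 RPKM in the others, with overlap. Krt8 was at 0.599 and 1.11 RPKM in these libraries and 0.124 to 0.709 RPKM in the others. Foxn1 was at 0.699 and 0.82 RPKM against 0.129 to 0.725 RPKM. Krt5 was at 0.166 RPKM or less and Aire at 0.339 RPKM or less in every library. The part of these markers in the result was not tested.

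**Figure D3:**
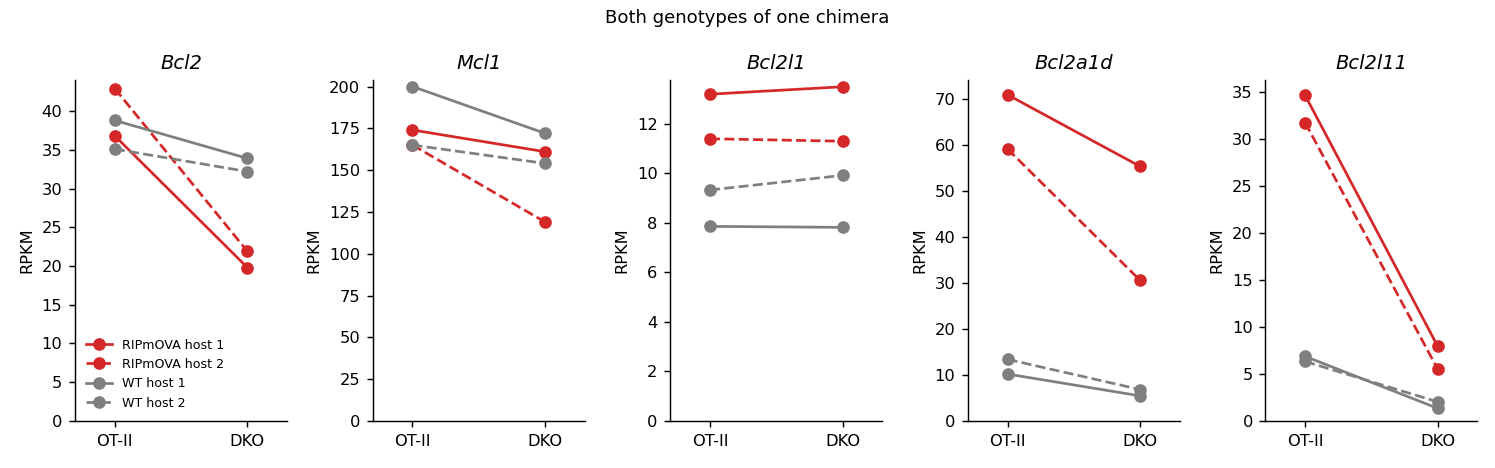
RPKM (vertical axes, each from 0) of 4 members and Bcl2l11 in control (OT-II) and DKO-labelled (DKO) cells of the same chimera; lines join the libraries of a chimera, red for RIPmOVA and grey for WT hosts. Both red lines of Bcl2 fall to about 0.5 of the control value (ratios 0.538 and 0.512) while both grey lines stay near it (0.874 and 0.917); Bcl2l11 falls in all 4 chimeras.

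The remaining members did not pass between genotypes. Bcl2a1d was lower in DKO-labelled cells in 4 of 4 chimeras, at 0.534 and 0.51 times the control value in WT hosts and 0.78 and 0.517 times in RIPmOVA hosts. Its log2 difference was -0.86 in WT hosts (SE 0.23, limma's adjusted p = 0.31) and -0.65 in RIPmOVA hosts (SE 0.25, adjusted p = 0.19). The latter was -1.07 without replicate 1 (adjusted p = 0.051) and -0.23 without replicate 2 of the DKO-labelled cells of RIPmOVA hosts (0.65). Mcl1 was also lower in 4 of 4 chimeras, at 0.716 to 0.928 times the control value, with log2 differences of -0.20 in WT hosts and -0.30 in RIPmOVA hosts (95% interval -0.63 to 0.04). Without the same libraries the latter was -0.52 and -0.08. Bcl2l1 lay between 0.994 and 1.06 times the control value in all 4 chimeras. Summed A1 had log2 differences of -0.85 in WT hosts (adjusted p = 0.4) and -0.47 in RIPmOVA hosts (adjusted p = 0.36). In WT hosts 0 of 6 members passed in limma, against 0.0605% of all genes called and 0.0692% on the adjusted p alone. There, Bcl2a1b and Bcl2a1d had an unadjusted p under 0.05, as did 913 of all 11569 genes, and voom called 0 members.

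The makeup of the family changed with the host. Per merged exon length, Mcl1 made up 67.4% to 74.0% of the summed level of the 7 members in the 5 libraries from WT hosts and 48.6% to 53.6% in the 4 from RIPmOVA hosts. The A1 paralogues made up 4.91% to 10.8% in WT hosts and 25.8% to 35.4% in RIPmOVA hosts. Bcl2 made up 13.3% to 17.0% in WT hosts, 9.55% and 12.2% in control cells of RIPmOVA hosts, and 5.68% and 9.22% in DKO-labelled cells of RIPmOVA hosts. Shares of transcripts say nothing of shares of protein. With deposited lengths, the A1 share was 4.48% to 10.2% in WT and 25.2% to 34.1% in RIPmOVA hosts, so the split between hosts did not depend on the length used.

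Bcl2l11, which encodes BIM, moved with host and genotype, so the ratio of the members to it spread widely. Bcl2l11 was at 6.86 and 6.32 RPKM in control and 1.34, 2.02 and 1.49 RPKM in DKO-labelled cells of WT hosts, and at 34.6 and 31.7 RPKM in control and 7.93 and 5.51 RPKM in DKO-labelled cells of RIPmOVA hosts. Per merged exon length, the summed members were 24.2 and 23.7 times Bcl2l11 in control cells of WT hosts. The ratio was 105, 66.2 and 91.7 in DKO-labelled cells of WT hosts, 6.29 and 6.27 in control cells of RIPmOVA hosts, and 24.9 and 24.5 in DKO-labelled cells of RIPmOVA hosts. The last group thus lay next to control cells from WT hosts on this ratio, with lower Bcl2 and higher A1. The ratio is a description with no test, and it is mostly set by Bcl2l11.

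Split by member, the ratio of Bcl2 to Bcl2l11 was 3.21 and 3.15 in control cells of WT hosts and 0.601 and 0.766 in those from RIPmOVA hosts. It was 9.06 to 15.6 in DKO-labelled cells of WT hosts and 1.41 and 2.26 in those from RIPmOVA hosts, below the control cells from WT hosts. The ratio of A1 to Bcl2l11 was 1.56 and 2.56 in control cells of WT hosts and 2.11 and 1.84 in those from RIPmOVA hosts, with overlapping ranges. In DKO-labelled libraries it was 4.01 to 5.17 in WT hosts and 8.81 and 6.31 in RIPmOVA hosts, above every control library. In control cells, mean A1 and mean Bcl2l11 were each 5.03 times as high in RIPmOVA hosts on the deposited scale.

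**Figure D4:**
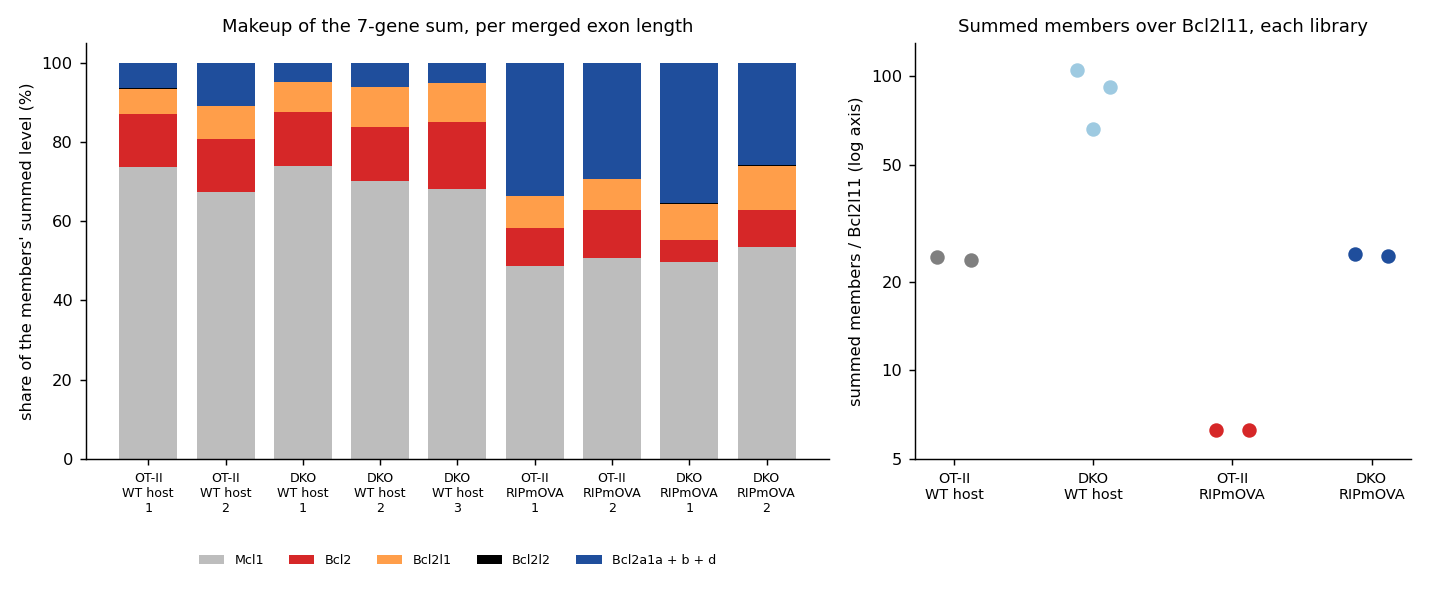
Left, share of each member in the summed level of the 7 members (vertical axis, %, per merged exon length) in the 9 libraries, with the A1 paralogues added together. Right, the summed members divided by Bcl2l11 in each library (log axis, points are libraries): control cells of RIPmOVA hosts sit at 6.27 and 6.29, DKO-labelled cells of RIPmOVA hosts (24.5 and 24.9) lie next to control cells of WT hosts (23.7 and 24.2), and DKO-labelled cells of WT hosts are at 66.2 to 105.

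Among the partners of the family, Bcl2l11 was the 1 of 8 BH3-only genes that passed, out of 4 kept, in all 4 pairwise comparisons. Its log2 difference was 2.25 between hosts in control cells (SE 0.19, limma's adjusted p = 0.00092) and 1.76 in DKO-labelled cells (SE 0.17, adjusted p = 0.0012). Between genotypes it was -2.24 in RIPmOVA hosts (adjusted p = 0.00088) and -1.76 in WT hosts (adjusted p = 0.0058). Bbc3 (PUMA), Bid and Bad, the others kept, did not pass in any of them. Of the 3 effector genes, Bax was the 1 kept, at 35.6 to 36.9 RPKM as group means, with log2 differences of -0.04 to 0.01. Bak1 was at 0.184 to 0.352 RPKM as group means and did not pass the filter. Of 6 other BCL2 relatives, 2 were kept, Bcl2l12 and Bcl2l13, and 0 passed.

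Some NF-kB subunits and inhibitors, which lie upstream of A1 and Bcl2l1, rose with the host. Of 8 genes, all kept, 3 passed the adjusted p in control cells (Relb, Nfkb2 and Tnfaip3), where 1.89% of all genes did, and 5 in DKO-labelled cells (those and Nfkbia and Nfkbie), where 3.35% did. All were higher, and 2 of them were past the log2 limit in each. Rel, Rela and Nfkb1 passed in neither, and Rela had log2 differences of 0.01 and 0.11. The list's median log2 difference was 0.73 and 0.80. Nfkb2 rose from 14.2 ± 3.83 to 37.5 ± 4.13 RPKM in control cells (SD, n = 2 each; log2 difference 1.39, adjusted p = 0.012) and from 14.0 ± 0.917 (n = 3) to 34.4 ± 8.5 RPKM (n = 2) in DKO-labelled cells (1.25, adjusted p = 0.0081). Tnfaip3, a feedback inhibitor, rose by 1.05 and 1.04 on the log2 scale. Between genotypes 0 of the 8 passed in either host, with medians of -0.09 in RIPmOVA and -0.11 in WT hosts.

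In the IL-7 receptor and STAT5 group, which lies upstream of Bcl2, 2 of 6 genes passed in some comparison. Il7r went from 51.8 ± 3.67 RPKM in WT hosts (SD, n = 3) to 16.4 ± 3.85 RPKM in RIPmOVA hosts (SD, n = 2) in DKO-labelled cells, and fell by 1.64 on the log2 scale (adjusted p = 0.0034). In control cells it was at 35.8 ± 4.97 and 30.8 ± 10.2 RPKM (SD, n = 2 each; adjusted p = 0.68). Between genotypes in RIPmOVA hosts its log2 difference was -0.87 (adjusted p = 0.081). Stat5a rose with the host in both genotypes, from 18.0 to 33.1 RPKM in control cells (log2 difference 0.86, adjusted p = 0.0061) and from 14.0 to 21.4 RPKM in DKO-labelled cells (0.60, adjusted p = 0.015), and was lower in DKO-labelled cells in RIPmOVA hosts (-0.61, adjusted p = 0.028).

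Of 6 other inhibitors of apoptosis, all kept, Birc3 (cIAP2) passed the adjusted p between hosts in DKO-labelled cells, from 16.8 ± 0.742 (n = 3) to 30.1 ± 0.864 RPKM (n = 2; log2 difference 0.82, adjusted p = 0.004). The other 5 did not pass in any comparison. Of 5 genes of MCL1 turnover, 4 were kept and 0 passed. Bcl2 and Bcl2l1 also vary with thymocyte maturation. Of 6 genes higher in mature thymocytes, S1pr1 rose and Il7r fell with the host in DKO-labelled cells, and S1pr1 was higher in DKO-labelled than control cells in RIPmOVA hosts (103 ± 10.7 against 42.6 ± 0.868 RPKM, n = 2 each, log2 difference 1.26, adjusted p = 0.002). Of 6 genes higher in immature thymocytes, Cd24a rose with the host in both genotypes (log2 difference 1.23 and 1.11). The part of maturation in the members' differences was not tested.

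The genes most like each member over the 9 libraries, by Pearson r of log2 values among genes kept, are given as a description. For Bcl2 they were Dexi (0.97), Eno1b (0.97) and Socs1 (0.96), and for Mcl1 they were 1810026B05Rik (0.95), Slain1 (0.93) and Ppp2ca (0.93). Bcl2l1 was most like Ppp1r16a (0.96), Syt13 (0.96) and Ccdc50 (0.96). The A1 copies were most like Lrp10 (0.98), Ptger2 (0.98) and Lrmp (0.97) for Bcl2a1a, Ptger2 (0.99), Hopx (0.98) and Crem (0.98) for Bcl2a1b, and Marcksl1 (0.99), Icam1 (0.99) and Cish (0.98) for Bcl2a1d. All 9 libraries enter each r, so it mostly reflects the 4 groups. Between members, r was 0.97 to 0.99 among the A1 copies and -0.43 to -0.25 between Bcl2 and each of them.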

How the data were processed

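Thymocytes of 9 libraries in 4 groups were analysed. The authors made cDNA by SMART-seq from few cells, aligned paired reads with STAR to mm10, removed duplicates, counted reads over the exons of each gene and deposited RPKM, scaled to exon length and exonic reads. Strand use in counting is not given in the sources used here.

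The depth of each library was worked out from low RPKM values, which rise in steps of 1 read: 100% of the values checked were whole reads (within 0.1 read). The floor of 3 reads was 0.12 to 0.193 RPKM at 1 kb, and read numbers cover counting error only, since reads carry no molecular identifiers. Genes with at least 1 RPKM in at least 2 libraries were kept, and log2(RPKM + 0.5) was fitted over all 9 libraries with limma 3.58.1 in R 4.3.3 (group means, eBayes with trend). Log2 differences are on that scale and understate changes of low genes. P values are two-sided and adjusted by Benjamini-Hochberg over 11569 genes, and calls needed an adjusted p of at most 0.05 with an absolute log2 difference of at least 1. In 5 simulated data sets of the host comparison in OT-II cells (11569 genes, 200 changed), 86.7% of changed genes were called and 2.54% of calls were unchanged genes. All planted changes were larger than the log2 limit of 1, so these shares say nothing of smaller differences. Exact permutation tests of groups this small cannot reach 0.05 and were not used.

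The labels tie libraries to chimeras, so same-numbered genotypes are paired by animal. Their deviations from group means correlated at 0.0059 and -0.239 in WT hosts and at -0.0793 in both RIPmOVA hosts. The RIPmOVA values are equal by construction, since the deviations of 2 libraries from their mean mirror each other, so they count once. Libraries of a group came from different hosts.

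The members and gene lists were chosen with earlier results of these data known. Named genes were all members, genes of the lists that passed the adjusted p or were most abundant, and the 3 genes most correlated with each member. Sequences and annotation came from GENCODE and RefSeq (GRCm38). Alternatives covered pseudocounts, filters, scaling, model terms, summed A1 copies and leaving out libraries; merged exon lengths, voom on recovered reads, a scaling over all genes and leaving out both WT-host libraries high in sensory receptor reads were chosen after seeing the data.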

Additional observations from a re-analysis of the deposited data

How the results depend on the processing

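The members called between hosts numbered 2 in control cells. The count was 1 (Bcl2a1d) with only the libraries of the groups compared, with no intensity trend, with the sensory receptor covariate, with voom on recovered reads and without both WT-host libraries high in sensory receptor reads, and 1 with the A1 copies summed to a single entry. Leaving out 1 library at a time gave 1 to 2. In DKO-labelled cells the count was 3, and 1 with the A1 copies summed. It was 2 (Bcl2a1b and Bcl2a1d) with no filter, a filter of 5 RPKM, quantile normalization, only the libraries of the groups compared, no intensity trend, the covariate or voom, 2 to 3 when leaving out 1 library at a time, and 4 on the adjusted p alone. Between genotypes in RIPmOVA hosts the count was 0, and 1 (Bcl2) on the adjusted p alone or with median-of-ratios scaling over all genes, where Bcl2 was at -1.14. That scaling moved the median of all genes to -0.17, so Bcl2 lay at about the same distance from it as in the deposited RPKM. Counts between genotypes in WT hosts and for the interaction stayed at 0 under every alternative run. The paired fits, with chimera as a random or fixed replicate block, changed no member's call, and Bcl2 between genotypes in RIPmOVA hosts was at -0.91 with the fixed block (adjusted p = 0.013). The causes of lost calls were not tested. With the A1 copies summed, fewer entries could be called.

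Differences that changed sign were small and not called in the main fit. Without both WT-host libraries high in sensory receptor reads, Bcl2 between genotypes in WT hosts was 0.08, Bcl2l1 there -0.07, Bcl2l1 in the interaction 0.08 and Mcl1 between hosts in control cells 0.04. Bcl2l1 between genotypes in RIPmOVA hosts was -0.03 with median-of-ratios rescaling and -0.22 with that over all genes, which also put Bcl2a1d in the interaction at -0.02. Quantile normalization put Bcl2a1a in the interaction at -0.28. Leaving out 1 library at a time gave, for Bcl2, -0.01 to 0.21 between hosts in control cells and -0.16 to 0.01 between genotypes in WT hosts. For Bcl2l1 it gave -0.11 to 0.13 between genotypes in RIPmOVA hosts, -0.02 to 0.21 in WT hosts and -0.21 to 0.04 in the interaction. For Mcl1 it gave -0.24 to 0.04 between hosts in control cells, -0.42 to 0.01 in DKO-labelled cells and -0.32 to 0.12 in the interaction. For the A1 copies it gave -0.7 to 0.39 for Bcl2a1b between genotypes in RIPmOVA hosts, and -0.33 to 0.72 for Bcl2a1a and -0.21 to 0.63 for Bcl2a1d in the interaction.

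Groups of 2 or 3 libraries and the few reads of Bcl2a1a and Bcl2l2 limit what these comparisons can show. Bcl2a1d between hosts and Bcl2a1b between hosts in DKO-labelled cells passed under all 22 alternatives run.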
